A study of Danio rerio with 20 samples.

Results

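The gene nat8l (ENSDARG00000077256), which encodes the enzyme that makes N-acetylaspartate, was described in single neurons of the zebrafish dorsal pallium. It is 1 of the 18820 genes of the deposited count table and was found by its name, which occurs in 1 row. It was chosen by its values in these same cells, where it had stood out as higher in non-synchronized neurons, so its difference between the groups and its relation to gad2 and the slc17 transporter genes are given as descriptions. Neurons of the central zone of the pallium (Dc) were imaged after conspecific alarm substance (CAS) in Tg(HuC:H2B-GCaMP6f) fish aged 4 to 5 weeks. These fish carry a nuclear calcium indicator in neurons. Neurons whose calcium activity joined the synchronized oscillation and neurons whose activity did not were aspirated with a glass pipette, and 10 libraries of each group were sequenced. All cells had received CAS, so no cell without CAS enters the comparison. The fish behind each cell is not named. Each group therefore counts as 1 sample, no test was computed, and SDs are spreads between cells. Levels are counts scaled to a library total of 1000000 (CPM).

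N-acetylaspartate (NAA) is an abundant amino acid derivative of vertebrate brain, and in mammals it is made mainly in neurons. There NAT8L joins the acetyl group of acetyl-CoA to aspartate. NAA is cleaved by aspartoacylase, encoded by aspa, which in mammalian brain is found mainly in oligodendrocytes. A further enzyme, encoded by rimkla, couples NAA to glutamate and gives N-acetylaspartylglutamate (NAAG), a peptide that acts on the metabotropic glutamate receptor encoded by grm3 and is cleaved outside the cell by peptidases of the naalad2 family. NAA is widely read in brain imaging as a sign of intact neurons.

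Total counts were 795838 to 2493351 in the synchronized and 1131532 to 3144155 in the non-synchronized libraries, and 6878 to 10878 and 5588 to 9925 genes had at least 1 count. All 10 genes of a neuron marker list were measured (mean of at least 1 CPM over all cells), among them elavl3, snap25a and syt1a with counts in all 20 cells. rbfox3a, of the same list, had counts in 4 synchronized and 6 non-synchronized cells. Means of 3 of the 10 genes, elavl4, rbfox3a and gap43, were at least 2-fold higher in non-synchronized cells, and none in synchronized cells. Of all measured genes, 23.3% and 26.7% were so. Summed, the 10 neuron genes reached 5359 to 13560 CPM in the synchronized group and 7518 to 13280 CPM in the non-synchronized group. Counts of genes from other cell types were present too. The summed level of 11 microglia and leukocyte genes spanned 0 to 381 CPM in the synchronized and 0 to 3659 CPM in the non-synchronized group, with over 1000 CPM in non-synchronized cells 13, 19-1 and 22. That of 7 rows for red blood cell genes spanned 0 to 11270 and 0 to 15060 CPM, with over 1000 CPM in synchronized cells 4-1 and 5 and non-synchronized cells 5 and 6.

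nat8l was detected in all 10 non-synchronized neurons and in 5 of 10 synchronized neurons. Its mean level was 463 ± 375 CPM (SD, n = 10 cells) for the non-synchronized group against 28.7 ± 48.1 CPM (SD, n = 10 cells) for the synchronized group, a 16.2-fold difference of the means, or -3.97 on the log2 scale after 1 CPM was added to each mean. The median was 402 CPM against 0.251 CPM. The difference was larger than the SD of either group, although the cells of each group spread widely.

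In the non-synchronized neurons nat8l ranged from 15.4 CPM in cell 19-1 and 21.6 CPM in cell 10 to 1171 CPM in cell 18. Cells 10-1, 13, 17, 5 and 6 held 216, 282, 376, 428 and 487 CPM, and cells 15 and 22 held 742 and 896 CPM. Among these cells, only 10 and 19-1 fell within the range of the synchronized group, and they lay about an order of magnitude below the other non-synchronized cells.

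**Figure D1:**
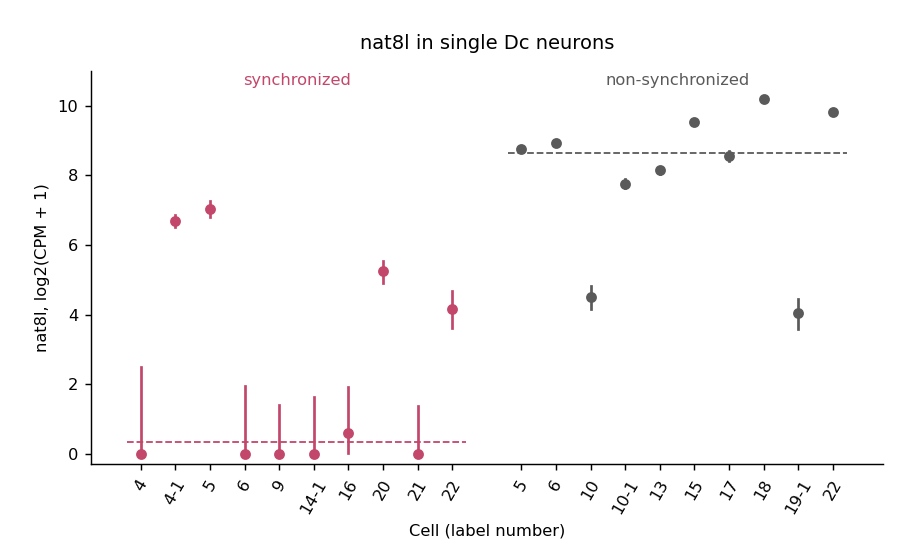
nat8l level in each of the 20 cells as log2(CPM + 1), with synchronized cells in red and non-synchronized cells in grey. Points are cells, vertical lines are exact 95% Poisson intervals that cover counting error only, and dashed lines are group medians (0.251 and 402 CPM). In 8 of 10 non-synchronized cells the level was above that of every synchronized cell.

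In the synchronized neurons nat8l had no count in cells 4, 6, 9, 14-1 and 21 and 1 count, or 0.502 CPM, in cell 16. A count of 0 allows up to 3 counts, which is 1.29 to 3.77 CPM in these 5 libraries. Cells 22 and 20 held 16.96 and 36.7 CPM, and cells 4-1 and 5 held 103 and 130 CPM. The synchronized group thus consisted of 6 cells with at most 1 count, 2 cells near the lowest non-synchronized values, and 2 cells above these but below the other 8 non-synchronized cells. Cells 4-1 and 5 together held 81.1% of the summed synchronized CPM. Without both, an alternative chosen after seeing the data, the log2 ratio was -5.90.

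In summed counts, nat8l had 528 of 17945347 counts in the synchronized libraries and 8328 of 21521121 counts in the non-synchronized libraries. These are 29.4 CPM (exact Poisson 95% interval 26.97 to 32.04) and 387 CPM (379 to 395). Without molecular identifiers reads are not independent molecules, so all intervals and limits given cover counting error alone and not the spread between cells or fish. Of the 100 pairs of a synchronized and a non-synchronized cell, the non-synchronized cell was the higher in 93. Leaving out any 1 cell kept the fold between 13.4 (without non-synchronized cell 18) and 26.6 (without synchronized cell 5).

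Set against all 14404 measured genes, 23.3% had a mean at least 2-fold higher in non-synchronized cells and 26.7% had a mean at least 2-fold higher in synchronized cells, with 1 CPM added. The share of calls that went to the non-synchronized side was 46.6%, and 67.3% with upper-quartile scaling. A log2 ratio as low as that of nat8l or lower was found for 1.57% of genes, and 0.0764% had counts in all 10 non-synchronized and in at most 5 synchronized cells. For 0.0278%, or 4 genes, at least 8 non-synchronized cells lay above every synchronized cell. These shares use the contrast by which nat8l was chosen and only place its values among those of other genes.

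Among the 7 libraries in which microglia or red blood cell genes exceeded 1000 CPM, nat8l was high in some and low in others, and over the 20 cells its rho (rank correlation, Spearman) with the summed level was 0.181 for microglia and 0.0417 for red blood cell genes. Synchronized cells 4-1 and 5, the highest of their group in nat8l, had red blood cell sums of 1631 and 11270 CPM, and also the highest sums of oligodendrocyte and myelin genes, 751 and 743 CPM, where no other synchronized cell exceeded 246 CPM. In cell 5 almost all of the latter sum was mag, whose highest synchronized level was 742 CPM. The sum of cell 4-1 held 410 CPM of olig1, so the sums of cells 4-1 and 5 came from different genes. In non-synchronized cells 15 and 18, with 742 and 1171 CPM of nat8l, the oligodendrocyte sum was 161 and 96.0 CPM, the red blood cell sum 0 and 18.4 CPM, and the microglia sum 19.4 and 2.12 CPM. Their sums of radial glia and astroglia genes were 317 and 1889 CPM, the latter the highest of all 20 cells. Without the 7 libraries the nat8l mean was 6.77 ± 13.5 CPM over the n = 8 synchronized cells left and 505.2 ± 456 CPM over the n = 5 non-synchronized cells left (SD), and its log2 ratio was -6.03. The difference was thus larger without these libraries. Synchronized cells 4-1 and 5 are among them, and leaving out those cells alone, chosen after seeing the data, gave a log2 ratio of -5.90.

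The synthesis of GABA marks inhibitory neurons, and gad2 encodes 1 of the enzymes that make GABA from glutamate. Ordered by gad2, the 6 cells with the highest levels were non-synchronized 5, 6, 18 and 13, synchronized 4-1 and non-synchronized 22, with 3931, 2560, 2246, 567, 382 and 343 CPM of gad2. Their nat8l levels were 428, 487, 1171, 282, 103 and 896 CPM in that order. All 6 cells rich in gad2 therefore held over 100 CPM of nat8l, but nat8l did not follow the order of gad2 among them. Synchronized cell 4-1, the single synchronized cell in this set, had the lowest nat8l level of the 6.

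nat8l was not limited to cells with gad2. Non-synchronized cell 15 had 742 CPM of nat8l and no gad2 count, and cell 10-1 had 216 CPM of nat8l and 1 gad2 count (0.414 CPM). Non-synchronized cell 17 had 376 CPM of nat8l beside 55.2 CPM of gad2, and synchronized cell 5 had 130 CPM beside none. In these 4 cells the sum of gad1b, gad2 and slc32a1, the last of which encodes the vesicular GABA transporter, was 3.54, 0.414, 59.2 and 0 CPM. In the other direction, no cell with over 50 CPM of gad2 lacked nat8l.

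**Figure D2:**
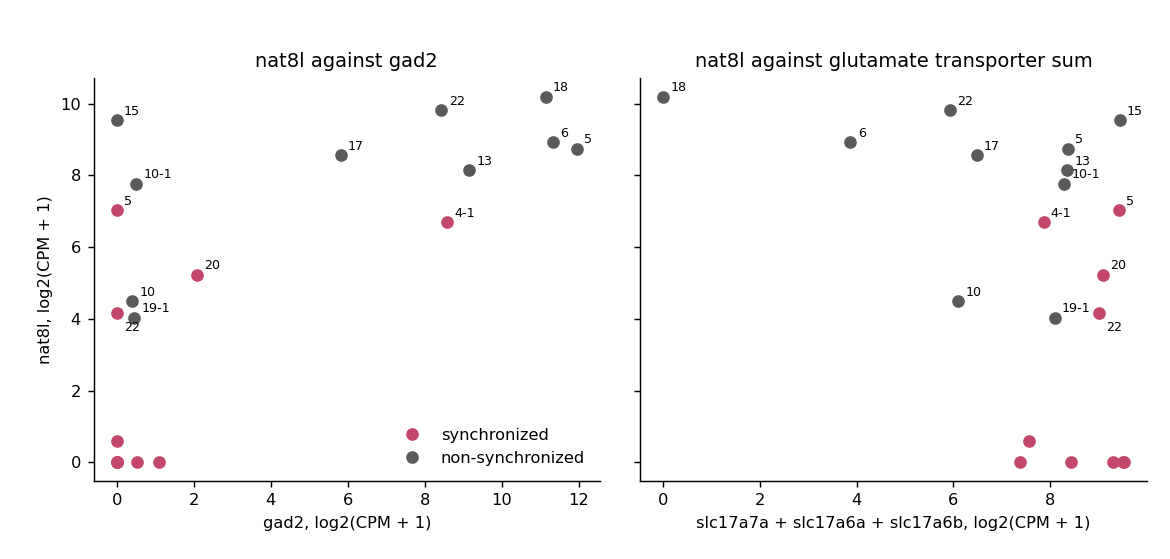
nat8l against gad2 (left) and against the sum of slc17a7a, slc17a6a and slc17a6b (right) in the 20 cells, all as log2(CPM + 1), with synchronized cells in red, non-synchronized cells in grey and label numbers beside cells with more than 1 nat8l count. On the left, cells 15 and 10-1 sit high in nat8l with almost no gad2, and on the right cell 15 sits high in both measures.

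Over the 20 cells the rho of nat8l with gad2 was 0.593, and Pearson's r of log2(CPM + 1) was 0.679. This rho was 0.446 without the 7 libraries rich in microglia or red blood cell genes. Within the groups rho was 0.240 over the 10 synchronized and 0.418 over the 10 non-synchronized cells, lower in each group than over both together. With the sum of the 3 GABA genes rho was 0.622 over all cells, 0.133 within synchronized and 0.648 within non-synchronized cells. For gad1b alone it was 0.5635 over all cells and 0.273 without those 7 libraries. The cells share 1 deposited table and may share fish, and their libraries differ in depth. nat8l had a rho of 0.00303 with the library total over all cells and of -0.6 within the non-synchronized cells, where the deeper libraries tended to hold less nat8l.

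The vesicular glutamate transporters of the slc17 family fill synaptic vesicles with glutamate in excitatory neurons. slc17a7a, slc17a6a and slc17a6b are the 3 of their 5 genes that were measured. All 3 had a negative rho with nat8l over 20 cells, -0.542 for slc17a7a, -0.401 for slc17a6a and -0.321 for slc17a6b. Within the synchronized cells these were -0.459, 0.0194 and 0.265, and within the non-synchronized cells -0.231, -0.418 and -0.140. Within a group, the values were thus closer to 0 than over all cells, except for slc17a6a in non-synchronized cells. The value for slc17a6b was 0.07 with upper-quartile scaling.

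For the sum of the 3 transporters rho was -0.458 over all cells, -0.0970 within synchronized and -0.309 within non-synchronized cells. Non-synchronized cell 15 held the highest transporter sum of its group, 695 CPM, together with the third highest nat8l level. Non-synchronized cells 5 and 13 held 330 and 325 CPM of the transporter sum beside 428 and 282 CPM of nat8l. At the other end, cell 18 had a transporter sum of 0 and the highest nat8l level of all cells. High nat8l thus occurred at both ends of the transporter range, and 5 synchronized cells with 165 to 734 CPM of the transporters had no nat8l count. slc17a7b and slc17a8, the remaining vesicular members, averaged under 1 CPM. slc17a9b, a relative that carries nucleotides into vesicles, was found in 4 cells of each group, at means of 7.34 ± 18.1 CPM (synchronized) and 15.4 ± 32.2 CPM (non-synchronized), with a rho of -0.0812. Without synchronized cell 5 its synchronized mean was 1.70 CPM.

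Among the other genes of GABA handling, 4 of 7 measured members of the list were at least 2-fold higher in non-synchronized and none in synchronized cells, beside 23.3% and 26.7% of all measured genes (median log2 ratio -2.51, against 0.06 for all measured genes). These 4 were gad2, gad1b, slc6a1b and slc32a1, and with upper-quartile scaling the count was 7. The median is the value of slc32a1, which was -6.72 without synchronized cell 4-1. slc6a1b, a GABA uptake transporter gene, had a rho with nat8l of 0.559 over all cells and of 0.685 within the non-synchronized cells, but of 0.303 without the 7 libraries rich in microglia or red blood cell genes. Its paralog slc6a1a averaged 181.5 ± 99.96 CPM (synchronized) and 222 ± 207 CPM (non-synchronized), with a rho of 0.0121 over all cells. For abat, whose product breaks GABA down, the means were 171 ± 123 and 243 ± 226 CPM in synchronized and non-synchronized cells, and rho was 0.126 over all cells but -0.640 and 0.818 within the 2 groups. Of 13 measured transcription factor genes of the GABAergic lineage, 12 were at least 2-fold higher in non-synchronized cells, beside 23.3% of all measured genes, and 10 were so without those 7 libraries. Several of the 12 reached the mean of 1 CPM only through the non-synchronized group. The synchronized means of arxa, sp8a, lhx8a and ascl1a were 0, 0.0465, 0.126 and 0.275 CPM. The last 3 had counts in 1 non-synchronized cell each. gsx2, the gene higher in synchronized cells, had counts in 1 synchronized cell. The largest differences were those of dlx2b, lhx6, dlx5a and dlx2a, homeobox genes with means of 0.241 ± 0.761, 0.250 ± 0.549, 11.2 ± 34.4 and 0.845 ± 1.62 CPM (synchronized) and 60.2 ± 108, 35.7 ± 102, 302 ± 431 and 31.6 ± 60.4 CPM (non-synchronized), each with counts in at most 5 non-synchronized cells. These means rested on few cells. The non-synchronized mean of lhx6 was 3.44 CPM without cell 18, and those of dlx2b and dlx2a were 36.5 and 14.3 CPM without cell 6. The synchronized mean of dlx5a was 0.267 CPM without cell 20. Their rho with nat8l over 20 cells was 0.553, 0.569, 0.660 and 0.642.

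Of 10 measured transcription factor genes of pallial excitatory neurons, 1 was at least 2-fold higher in synchronized and none in non-synchronized cells, beside 26.7% and 23.3% of all measured genes (median log2 ratio 0.56). With upper-quartile scaling these counts were 0 and 4, and without the libraries of suffix -1 4 were higher in synchronized cells. The single gene was neurod6a, at 234 ± 184 and 99.1 ± 94.8 CPM, with a rho of -0.480 with nat8l. The summed level of this list had a rho of -0.582 with nat8l over all cells, and of -0.110 within synchronized and -0.830 within non-synchronized cells. eomesa, a T-box factor of the pallium, had a rho of -0.643 over all cells. The other T-box genes of the list, tbr1b and tbr1a, had a rho of -0.232 and 0.0206, and tbr1a had counts in only 2 cells of each group.

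Of the other 11 genes of NAA and NAAG metabolism listed, 6 were found by symbol and 5 were measured: rimkla, aspa, naalad2, grm2b and grm3. None of the 5 was at least 2-fold higher in non-synchronized cells, and 2 were at least 2-fold higher in synchronized cells, rimkla and naalad2, beside 23.3% and 26.7% of all measured genes. The 2 depended on the scaling, with 1 left under TMM and 0 under poscounts, RLE and upper-quartile scaling, and the last put 1 gene on the non-synchronized side. The median log2 ratio of the 5 was 0.84. The sixth gene, slc17a5, averaged under 1 CPM.

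rimkla, the NAAG synthase gene, had counts in all 20 cells. In the synchronized group it ran from 2.41 CPM in cell 4-1 to 415 CPM in cell 14-1, and in the non-synchronized group from 3.54 CPM in cell 15 to 294 CPM in cell 19-1, so that the groups overlapped over nearly their whole range. The means were 175 ± 131 CPM (synchronized) and 84.5 ± 93.2 CPM (non-synchronized; SD, n = 10 cells each), a 2.07-fold difference smaller than the SD within the synchronized group. Its log2 ratio of 1.04 was 0.80 to 1.497 with any 1 cell left out and turned to -0.42 with upper-quartile scaling. Without the 7 libraries rich in microglia or red blood cell genes it was 2.68. Cell by cell, rimkla ran against nat8l, with a rho of -0.624 over all cells, -0.718 within synchronized and -0.406 within non-synchronized cells. With upper-quartile scaling the rho over all cells was -0.242, and without those 7 libraries it was -0.797. The 5 synchronized cells without nat8l counts held 138 to 415 CPM of rimkla, and cell 4-1, with 103 CPM of nat8l, held 2.41 CPM. Non-synchronized cells 15 and 22, with 742 and 896 CPM of nat8l, held 3.54 and 11.6 CPM of rimkla, while cell 19-1, with the lowest nat8l of its group, held 294 CPM. The reverse order was not strict, since non-synchronized cell 6 held 177 CPM of rimkla beside 487 CPM of nat8l and synchronized cell 5 held 110.1 CPM beside 130 CPM.

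**Figure D3:**
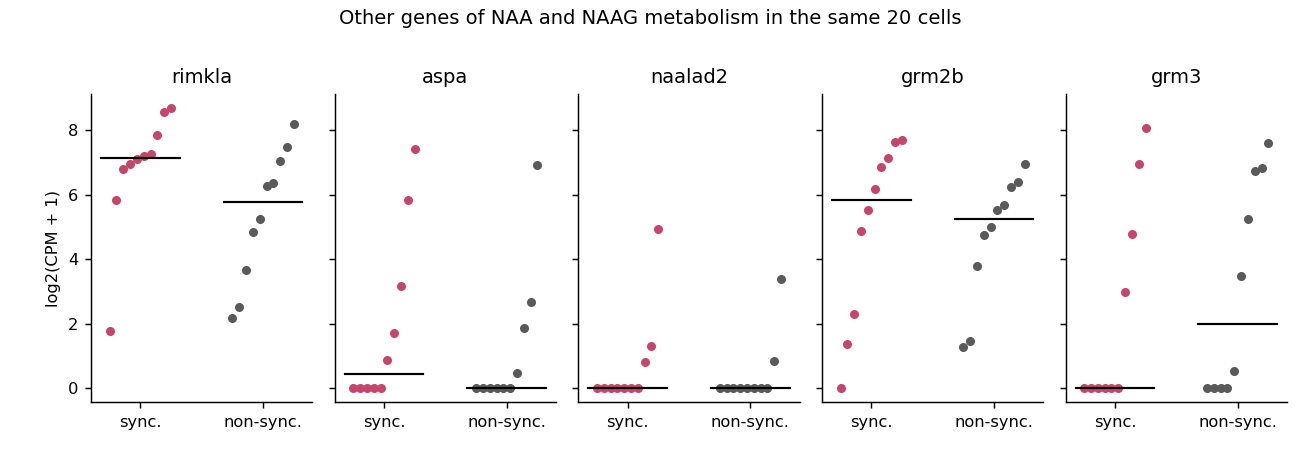
Levels of rimkla, aspa, naalad2, grm2b and grm3 in the same cells as log2(CPM + 1), with synchronized (sync.) cells in red and non-synchronized (non-sync.) cells in grey. Each point is a cell, sorted by level within its group, and lines are medians. rimkla is present in every cell, while aspa and naalad2 have no count in most cells.

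aspa, the gene of the NAA-cleaving enzyme, was detected in 5 synchronized and 4 non-synchronized cells. It averaged 23.5 ± 53.7 and 12.9 ± 37.9 CPM, and these means rested on few cells. Synchronized cell 14-1 held 168 CPM and cell 22 held 55.9 CPM, and non-synchronized cell 18 held 121 CPM. Without cell 14-1 the synchronized mean was 7.46 CPM and the log2 ratio turned from 0.82 to -0.72, and without cell 18 the non-synchronized mean was 0.937 CPM. Its rho with nat8l was 0.0232 over all cells. In cells 14-1 and 18 the oligodendrocyte and myelin sum was 197 and 96.0 CPM, within the range of 16.9 to 751 CPM over all cells. Of the 9 genes of that list that were found, none was at 0 in all cells, but some were sparse. mpz and cldnk had counts in 1 synchronized cell each and mbpa in 1 cell of each group. mbpb and mag had counts in 9 and 8 synchronized cells and in 7 non-synchronized cells each. The part of oligodendrocyte RNA in the aspa values was not tested.

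naalad2, a NAAG-cleaving peptidase gene, was detected in 3 synchronized and 2 non-synchronized cells, at 29.5 CPM in synchronized cell 9, 9.54 CPM in non-synchronized cell 10 and at most 1.51 CPM elsewhere. Its means were 3.18 ± 9.27 and 1.03 ± 3 CPM, and without cell 9 the log2 ratio turned from 1.04 to -0.70. The receptor genes grm3 and grm2b, which encode metabotropic glutamate receptors that couple to the inhibitory G protein, had different patterns. grm3 was detected in 4 and 6 cells and averaged 42.4 ± 88.1 and 45.7 ± 67.7 CPM, a difference far smaller than the SDs that changed sign with several single cells left out. Without synchronized cell 14-1 the synchronized grm3 mean was 17.2 CPM. grm2b was detected in 9 and 10 cells and averaged 80.6 ± 79.1 and 44.8 ± 38.9 CPM. Its rho with nat8l was -0.329 over all cells, -0.188 within synchronized and -0.770 within non-synchronized cells.

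Aspartate and acetyl-CoA are the substrates of the NAA enzyme. Of 14 measured genes that supply them, 1 was at least 2-fold higher in non-synchronized cells, aclyb, and 3 in synchronized cells, slc25a12, aclya and pdha1b, beside 23.3% and 26.7% of all measured genes. The counts were 3 and 3 with RLE and with poscounts scaling and 4 and 1 with upper-quartile scaling. aclyb and aclya encode ATP citrate lyase, which forms acetyl-CoA in the cytosol. For aclyb the means were 11.6 ± 15.1 and 25.8 ± 69.2 CPM, with a log2 ratio of -1.09 that became 1.29 without non-synchronized cell 5. aclya averaged 28.5 ± 39.2 and 9.87 ± 21.9 CPM, the latter 3.32 CPM without non-synchronized cell 6. slc25a12, which encodes a mitochondrial aspartate-glutamate carrier, averaged 54.4 ± 90.6 and 22.1 ± 29.3 CPM, with a log2 ratio of 0.27 to 1.79 when 1 cell was left out, lowest without synchronized cell 9. The log2 ratios of aclya and slc25a12, 1.44 and 1.26, turned to -0.19 and -0.46 with upper-quartile scaling. pdha1b, a subunit gene of pyruvate dehydrogenase, had counts in 2 synchronized and 0 non-synchronized cells. Its paralog pdha1a averaged 185 ± 159 and 97.8 ± 92.6 CPM, with a rho with nat8l of -0.648 over all cells. The summed level of this list had a rho with nat8l of -0.426 over all cells and of -0.661 within non-synchronized cells. Of 7 measured genes of glutamine and glutamate metabolism, 1 was at least 2-fold higher in synchronized cells (3 with upper-quartile scaling), beside 26.7% of all measured genes. This was glud1a, a glutamate dehydrogenase gene detected in 4 synchronized cells and 1 non-synchronized cell.

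The genes most like nat8l were sought by rho over the 20 cells, among the 7874 named genes that reached a mean of 10 CPM and were counted in 10 or more cells. The median rho was -0.0821, and 1.46% of genes had a rho of at least 0.5 and 5.4% of at most -0.5. The 6 highest were gpc6a, tenm3, stat3, mao, ptprfa and spock1, with 0.878, 0.814, 0.805, 0.794, 0.774 and 0.742. Their rho stayed between 0.708 and 0.896 with any 1 cell left out. They were picked as extremes among many genes, so the size of these values is a description.

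gpc6a, which encodes a glypican, a proteoglycan of the cell surface, was closest. It was detected in 9 non-synchronized and 3 synchronized cells, and the 3 synchronized cells were 4-1, 5 and 22, with 279.9, 97.5 and 111 CPM. These are 3 of the 4 synchronized cells with over 10 CPM of nat8l, the fourth being cell 20, with no gpc6a count. In the non-synchronized cells gpc6a was at 0 in cell 10 and at 25.5 CPM in cell 19-1, the pair of cells with the lowest nat8l, and at 1335 CPM in cell 18, the cell with the highest. Its rho was 0.740 within synchronized cells, where only 3 had gpc6a counts, and 0.830 within non-synchronized cells. gpc6a was picked by its rho over these same cells, so the values within the groups are descriptions and no separate check of the likeness.

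mao encodes monoamine oxidase, which degrades serotonin and other monoamines, and stat3 encodes a transcription factor downstream of cytokine receptors. For mao the means were 5.29 ± 13.5 CPM (synchronized) and 69.1 ± 85.6 CPM (non-synchronized), 13.04-fold apart, and it had counts in 5 and 10 cells. Synchronized cell 20 held 43.2 CPM of mao, and without it the synchronized mean was 1.08 CPM. stat3 averaged 13.2 ± 40.7 and 78.8 ± 115 CPM, and its synchronized mean came mostly from cell 4-1, with 129 CPM, and was 0.349 CPM without it. tenm3, a teneurin adhesion gene, averaged 84.1 ± 211 and 154 ± 176 CPM. Its highest cell was synchronized 4-1, with 669.8 CPM, without which the synchronized mean was 18.97 CPM, so its likeness to nat8l was in the order of cells more than in the group means. ptprfa and spock1 had their highest values in non-synchronized cell 15, 438 and 1520 CPM, and the non-synchronized spock1 mean fell from 315 to 181 CPM without it.

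**Figure D4:**
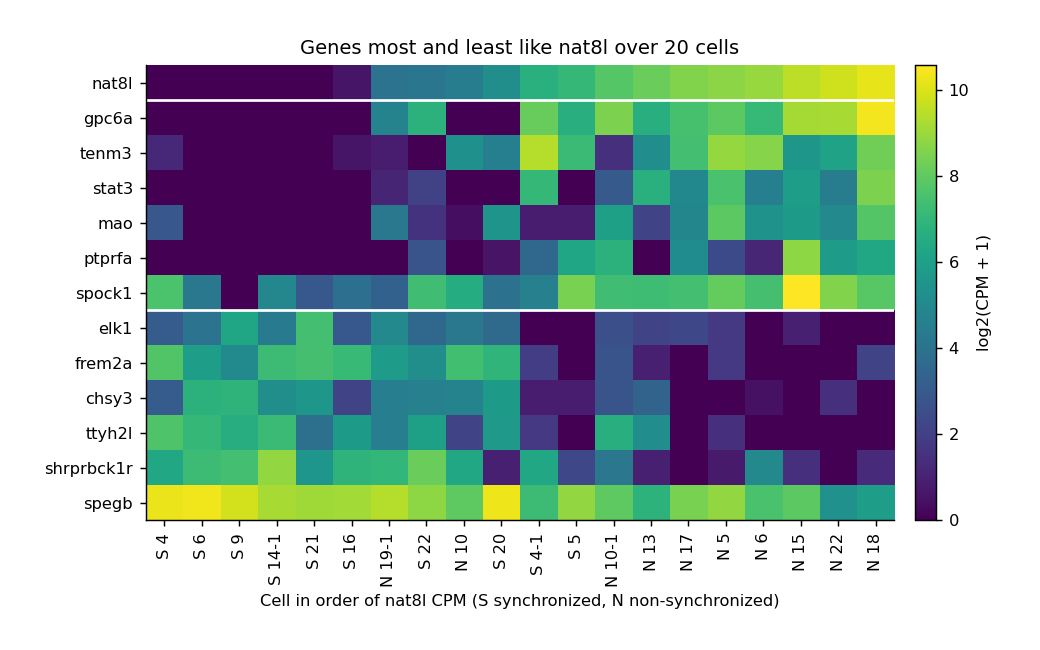
Levels, as log2(CPM + 1) in colour, of nat8l (top row), the 6 genes with the highest rho (middle rows) and the 6 with the lowest rho (bottom rows), with the 20 cells in order of nat8l CPM. Synchronized cells are marked S and non-synchronized cells N. The middle rows brighten to the right, where nat8l rises to 1171 CPM, and the bottom rows darken.

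The 6 lowest were elk1, frem2a, chsy3, ttyh2l, shrprbck1r and spegb, with rho from -0.828 to -0.797. elk1, a transcription factor gene of the ETS family, had means of 31.4 ± 52.5 CPM (synchronized) and 6.36 ± 9.86 CPM (non-synchronized) and a rho of -0.951 within the non-synchronized cells. Its synchronized mean was 16.3 CPM without cell 21. chsy3, a chondroitin sulfate synthase gene, averaged 39.8 ± 43.0 and 6.51 ± 9.74 CPM. spegb was detected in all cells, at 740 ± 402 and 261 ± 194 CPM. All 6 had a mean at least 2-fold higher in synchronized cells with scaling to library totals, beside 26.7% of all measured genes. They were picked by their rho with nat8l, itself chosen as higher in non-synchronized cells, so the choice favours this direction. With upper-quartile scaling spegb and shrprbck1r did not reach 2-fold, with log2 ratios of 0.20 and 0.90 and rho values of -0.0939 and -0.521. With library totals the rho of the 6 within each group lay between -0.951 and -0.524.

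In the RefSeq gene table of a later assembly, GRCz12tu, the span of a long non-coding RNA gene, LOC141375358, overlaps that of nat8l. The paper names a stranded mRNA library kit, but whether the counting used strand is not given in the sources used here. The strands of both genes and any overlap of their exons were not examined. Whether reads of the non-coding RNA enter the nat8l counts was therefore not tested. The non-coding gene has no row of its own by that name. Of the neighbouring genes, nelfa, a subunit gene of a transcription elongation factor, had means of 64.5 ± 136 CPM (synchronized) and 16.7 ± 37.5 CPM (non-synchronized), with a rho of -0.352. Without synchronized cell 14-1 its synchronized mean was 21.9 CPM.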

How the data were processed

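The table that the authors deposited holds unnormalized whole-number counts of 18820 genes in 20 libraries, 1 per collected neuron. Libraries were sequenced with 75 bp paired-end reads. Genome build danRer11 and edgeR 3.14.0 are listed in the submitters' processing notes, while neither aligner nor read counter is given in the sources used here. CPM was computed here as deposited counts over the library total. From it came group means, SDs, the cells with 1 count or more, and log2 ratios of the means plus 1 CPM. Correlations over cells are given without p-values. A gene was measured at a mean of at least 1 CPM, and a log2 ratio of at least 1 or at most -1 was counted as 2-fold.

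nat8l and the gene lists were chosen with earlier results of these data known. Named genes were nat8l, the GABA and slc17 genes, measured NAA genes, up to 4 members of each list with the largest 2-fold differences, and the 6 highest and 6 lowest rho values. Genes beyond that rule, such as abat, slc6a1a, eomesa, tbr1a, tbr1b, pdha1a, nelfa, htr7a and elmo1, were named after their values were seen. Libraries that share a label number were kept as separate cells, since the chi-square of their counts over its degrees of freedom was 131 (synchronized 4 with 4-1) and 193 (non-synchronized 10 with 10-1) where the remaining 88 pairs gave 79.6 to 335. The scripts were tested on simulated data. Alternatives were TMM, poscounts, RLE and upper-quartile scaling, other totals, pseudocounts and averages, label-number averaging, libraries left out, and thinning to 795838 counts in 100 draws. Scaling factors came from DESeq2 1.42.0 and edgeR 4.0.16 under R 4.3.3. All else was done in Python 3.11.15 with scipy 1.17.1, pandas 2.3.3 and numpy 2.4.6, and plots with matplotlib 3.10.9.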

Additional observations from a re-analysis of the deposited data

Results flagged for a closer look

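For nat8l, gad2, the 3 measured vesicular glutamate transporter genes and the 5 other measured NAA genes, each group of 10 cells was searched for a cell whose gap to its nearest neighbour, over the range of the group, exceeded Dixon's 95% critical value. This was met in 8 of 20 groups. For values of a normal distribution chance would flag about 1 in 20 groups, but CPM values here are skewed and many are 0. nat8l itself had no such cell in either group.

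Synchronized cell 4-1 stood apart in gad2, with 382 CPM and the next cell at 3.25 CPM. Non-synchronized cell 5 stood apart in slc17a7a with 132 CPM (next 59.97 CPM), and non-synchronized cell 15 in slc17a6a with 582 CPM (next 265 CPM). aspa stood apart in synchronized cell 14-1 with 168 CPM (next 55.9 CPM) and in non-synchronized cell 18 with 121 CPM (next 5.38 CPM). naalad2 did so in synchronized cell 9 with 29.5 CPM (next 1.51 CPM) and in non-synchronized cell 10 with 9.54 CPM (next 0.789 CPM). grm3 reached 269 CPM in synchronized cell 14-1, with the next cell at 122 CPM.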

How the results depend on the processing

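The nat8l log2 ratio of -3.97 kept its direction under every alternative run. It was -4.66 to -3.70 with any 1 cell left out, -6.03 without the 7 libraries rich in microglia or red blood cell genes (where nat8l was detected in 3 of 8 and 5 of 5 cells), -5.65 as a difference of mean log2(CPM + 1), -8.33 as a ratio of medians, and -5.90 without synchronized cells 4-1 and 5, the last chosen after seeing the data. Scaling moved the median log2 ratio of all measured genes from 0.06 to -0.06 (TMM), -0.16 (poscounts), -0.11 (RLE) and -0.76 (upper-quartile), and the nat8l ratio minus that median was -4.03 to -3.67 in these settings. Upper-quartile scaling counted 6485 genes as 2-fold higher in non-synchronized cells, against 3363. The rho with gad2 was 0.535 to 0.738 with any 1 cell left out, 0.446 without the 7 libraries and 0.240 within synchronized cells. The rho with the transporter sum was -0.586 to -0.366 with any 1 cell left out, -0.174 with upper-quartile scaling and -0.0970 within synchronized cells. At depths thinned to the smallest library, nat8l was found in 4 to 5 synchronized and 10 non-synchronized cells.

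Other genes changed sign as follows. With upper-quartile scaling the log2 ratios were -0.42 for rimkla, -0.081 for aspa, -0.87 for slc17a6a, -0.46 for slc25a12 and -0.19 for aclya, and the rho of slc17a6b with nat8l was 0.072. This scaling replaced the totals of non-synchronized cells 15 and 6 and synchronized cell 5, which were 1131532, 2496720 and 1272118 counts, by 107455, 268637 and 268637. Levels in these cells were thereby raised several-fold. The aspa ratio was -0.81 without the libraries of suffix -1, and the aclyb ratio 0.746 without the 7 libraries. The rho of aspa with nat8l was -0.0665 with libraries of 1 label number averaged and -0.0115 after thinning. With 1 cell left out, the log2 ratio ranged from -0.72 to 3.66 for aspa, from -0.70 to 1.94 for naalad2, from -1.36 to 0.51 for grm3 and from -1.64 to 1.29 for aclyb, and the rho with nat8l from -0.126 to 0.166 for aspa and from -0.0325 to 0.224 for grm3. The cause of these changes was not tested. No paired analysis was possible because the fish of each cell is not named. Depth limits the 5 cells without nat8l counts to levels below 1.29 to 3.77 CPM, by counting error only.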

Other observations

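htr7a, which encodes the serotonin receptor that the study follows, was looked at beside nat8l after its values were seen. Over the 20 cells the rho was -0.799, which includes 10 non-synchronized cells without any htr7a count. Within the 10 synchronized cells it was -0.601. The 4 synchronized cells with over 10 CPM of nat8l, cells 5, 4-1, 20 and 22, held 0, 3.61, 0.929 and 24.5 CPM of htr7a. The 5 synchronized cells with no nat8l count, cells 4, 6, 9, 14-1 and 21, held 2.51, 37.7, 26.9, 113 and 115 CPM, and cell 16, with 1 nat8l count, held 146 CPM. High levels of both genes were not found in the same cell, and cell 4 was low in both.

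Besides nat8l, the 3 genes in which at least 8 non-synchronized cells lay above every synchronized cell were tpt1, hnrnpdl and elmo1. elmo1, which encodes an activator of Rac signalling, reached 802 CPM in non-synchronized cell 19-1, where nat8l was at 15.4 CPM. These genes were found with the same contrast as nat8l.

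The summed level of radial glia and astroglia genes, a list that holds glula and slc1a2b, both counted in all 20 cells, had a rho with nat8l of 0.455 over all cells, 0.661 within non-synchronized and 0.317 within synchronized cells. It was 141 to 959.5 CPM in synchronized and 183 to 1889 CPM in non-synchronized cells. The highest sums of all 20 cells were those of non-synchronized cells 18 and 22, 1889 and 1343 CPM. These cells also held the highest nat8l levels, 1171 and 896 CPM. Of 7 measured members, 3 were at least 2-fold higher in non-synchronized cells (her4.1, sox2 and fabp7a) and 2 in synchronized cells (s100b and gfap). Of all measured genes, 23.3% and 26.7% were so. The sox2 means were 18.8 ± 43.3 CPM (synchronized) and 68.7 ± 88.4 CPM (non-synchronized), with a rho of 0.570 with nat8l, and those of fabp7a were 85.5 ± 132 and 226 ± 319 CPM, with a rho of 0.331. Of this list, gfap, slc1a3b, s100b and aqp4 were at 0 in at least 9 non-synchronized cells each. aqp4 had counts in 0 synchronized cells and 1 non-synchronized cell. her4.1 and cx43 had counts in 2 and 3 non-synchronized cells and in 1 synchronized cell each. The means of her4.1 and cx43 were 0.126 and 0.0628 CPM (synchronized) and 7.61 and 1.47 CPM (non-synchronized). The part of glial RNA in the nat8l values was not tested.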
